A study of Homo sapiens with 37 samples.

Results

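Mitochondrial transcription and rRNA methylation were followed in K562, an established human erythroleukemia cell line, through 10 nuclear genes: TFB1M, TFB2M, TFAM, POLRMT, TEFM, MTERF1, MTERF2, MTERF3, MTERF4 and NSUN4. They are 10 of the 32055 genes in the deposited table, found there by Ensembl identifier, and all 10 passed the filter on low counts that left 10661 genes. They were chosen by measured values, because TFB1M was lower in every KO library than in every Control library, so the TFB1M difference between the groups is described here without a test. The data are 37 bulk SCRB-seq libraries, 26 labelled KO and 11 labelled Control. KO cells carry a disruption of ZBTB7A, a zinc finger transcription factor, made with Cas9 and a gRNA in K562, and Control cells received the same Cas9 vector with no gRNA. According to the methods, GFP-positive cells were sorted singly and expanded, whereas the labels give neither clone nor gRNA. All p-values therefore measure only the spread between these libraries, which may share a clone.

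Mitochondrial DNA (mtDNA) is transcribed by the single-subunit RNA polymerase POLRMT together with TFAM, which binds and bends the promoter and packages the genome, and TFB2M, which opens the promoter. TEFM keeps the polymerase moving, and the MTERF proteins bind mtDNA or mitochondrial rRNA. TFB1M is a paralog of TFB2M that became an rRNA methyltransferase: it dimethylates a pair of adjacent adenines near the 3′ end of the 12S rRNA, the RNA of the small mitochondrial ribosomal subunit encoded by MT-RNR1. NSUN4 methylates a cytosine in the same rRNA and works with MTERF4 in joining the ribosomal subunits. An erythroid cell line depends on mitochondria for heme synthesis as well as for respiration.

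The substrate of TFB1M is shown first because MT-RNR1 is the readout closest to that enzyme. It is a stem-loop of 24 bases on the plus strand of the mitochondrial genome (chrM:1571-1594, GRCh38), the DNA letters of the 12S rRNA, with 10 paired positions around a loop of 4 bases. The capitals mark both adenines that TFB1M dimethylates, at bases 936 and 937 of the annotated gene. UMI counts measure the amount of this RNA and do not show its methylation.
MT-RNR1: taagtgtactggAAagtgcacttg

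The promoters of TFB1M and of the 3 other members that were lower in KO, namely TFAM, POLRMT and MTERF2, are shown to place them beside the letters bound by factors known for mitochondrial genes. RefSeq (GRCh38.p14) gave a window of 300 bases, 250 before and 50 after the start site, for 9 of the 10 members. The windows are chr6:155314435-155314734 (minus strand) for TFB1M, chr10:58385160-58385459 (plus strand) for TFAM, chr19:633488-633787 (minus strand) for POLRMT and chr12:106987097-106987396 (minus strand) for MTERF2. Capitals mark, on either strand, the letters GCATGCGC of the NRF1 motif, CCGGAAG of the ETS motif bound by GABPA, and GGGCGG bound by SP1. Neighbouring matches can overlap, since the NRF1 letters are nearly their own reverse complement.
TFB1M: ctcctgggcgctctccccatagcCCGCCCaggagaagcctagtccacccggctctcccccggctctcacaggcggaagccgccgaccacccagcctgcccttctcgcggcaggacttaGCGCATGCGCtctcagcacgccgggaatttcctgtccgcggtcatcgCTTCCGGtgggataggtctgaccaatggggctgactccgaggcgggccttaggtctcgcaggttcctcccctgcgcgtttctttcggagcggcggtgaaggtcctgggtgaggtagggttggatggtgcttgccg
TFAM: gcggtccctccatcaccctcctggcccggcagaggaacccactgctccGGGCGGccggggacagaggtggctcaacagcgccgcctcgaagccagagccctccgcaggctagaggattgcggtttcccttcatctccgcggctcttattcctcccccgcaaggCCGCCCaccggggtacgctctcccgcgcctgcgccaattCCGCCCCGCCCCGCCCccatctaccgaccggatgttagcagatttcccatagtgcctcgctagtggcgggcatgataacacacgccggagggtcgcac
POLRMT: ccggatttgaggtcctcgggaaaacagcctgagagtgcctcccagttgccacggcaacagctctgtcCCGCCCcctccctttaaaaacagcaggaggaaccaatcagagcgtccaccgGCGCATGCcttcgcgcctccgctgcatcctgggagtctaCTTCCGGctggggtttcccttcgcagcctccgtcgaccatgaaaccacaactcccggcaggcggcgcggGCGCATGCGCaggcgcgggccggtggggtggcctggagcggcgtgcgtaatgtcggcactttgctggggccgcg
MTERF2: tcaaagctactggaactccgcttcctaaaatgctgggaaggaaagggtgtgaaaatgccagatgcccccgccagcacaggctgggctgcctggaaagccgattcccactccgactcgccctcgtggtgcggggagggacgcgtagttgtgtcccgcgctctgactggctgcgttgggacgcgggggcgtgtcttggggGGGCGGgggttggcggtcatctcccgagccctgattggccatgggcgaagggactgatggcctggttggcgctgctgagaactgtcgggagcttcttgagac

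The NRF1 letters occurred in 3 of the 9 windows (TFB1M, TFB2M and POLRMT) and in 3.05% of all 35116 RefSeq windows of this length. The ETS letters were in 5 of the 9, those of TFB1M, POLRMT, TEFM, MTERF1 and MTERF4, against 10.3% of all windows. The SP1 letters were in 7 of the 9, against 45% of all. TFB1M and POLRMT thus held all 3 motifs, TFAM held 5 copies of the SP1 letters alone, and MTERF2 held 1. TFB2M also held NRF1 letters, and its level did not pass the test in KO. The 9 windows were 62% to 72% G or C, and the shares over all windows were not matched for this. A match of letters is a description of the sequence and does not show binding.

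Library depth was 1070250 to 4270901 UMIs (median 2030965) in KO and 563235 to 4710809 (median 3518944) in Control. Because UMIs count captured molecules at the 3′ end, a level does not grow with transcript length. Levels are given as log2 CPM (CPM, counts scaled to library size after TMM normalization, with a prior count of 2). Barcodes were unevenly distributed: an AT-rich well barcode (at most 2 of 6 bases G or C) was carried by 12 KO and 8 Control libraries, and a GC-rich one (at least 4) by 12 KO and 1 Control library. Libraries are named by barcode or, in lists, by group and a number given in accession order. The library labelled KO with barcode GGCCAC stood apart from its group. Its NOTCH3 level was 1.97 log2 CPM, where the other 25 KO libraries had 3.55 to 4.83 and the Control libraries 0.60 to 2.13, and its NFE2 and TFRC levels were also above all other KO libraries. NFE2 was 8.11 log2 CPM (Control 7.67 to 8.14) and TFRC 9.48 (Control 9.15 to 9.51). All 3 levels lay within the Control range and go against its label, but it was kept as labelled. The targeted gene does not check the labels, since ZBTB7A mRNA had 62 to 314 UMIs in KO and 21 to 296 in Control and reads of its 3′ end do not show whether the coding part is edited. Of the erythroid markers of K562, 9 were measured and all 9 passed the filter, whereas none of 9 markers of lymphoid, monocytic, stromal, epithelial, hepatic or endothelial cells did. In lysates of many cells, a smaller number of cells with a transcript and less of it per cell cannot be told apart.

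The level of TFB1M (ENSG00000029639, chromosome 6, 155256134 to 155314493, minus strand, GRCh38) was lower in KO. In the 11 Control libraries it had a lowest, median and highest level of 5.36, 5.58 and 6.26 log2 CPM, from 42 to 224 UMIs per library. In the 26 KO libraries the same values were 4.62, 5.01 and 5.34, from 35 to 155 UMIs. No KO library reached the lowest Control library, although the distance between the closest pair, library GGCCAC (labelled KO) at 5.34 and Control library ATGAAT at 5.36, was far smaller than the spread within either group. The mean was 5.66 ± 0.26 (SD, n = 11) for Control libraries and 4.98 ± 0.19 (SD, n = 26) for KO libraries, and the fitted log2 fold change was -0.67 (SE 0.07), or 0.631 times the Control level. Of all tested genes, 0.113% (12 genes) likewise had every KO library below every Control library, and TFB1M was selected as one of these.

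**Figure D1:**
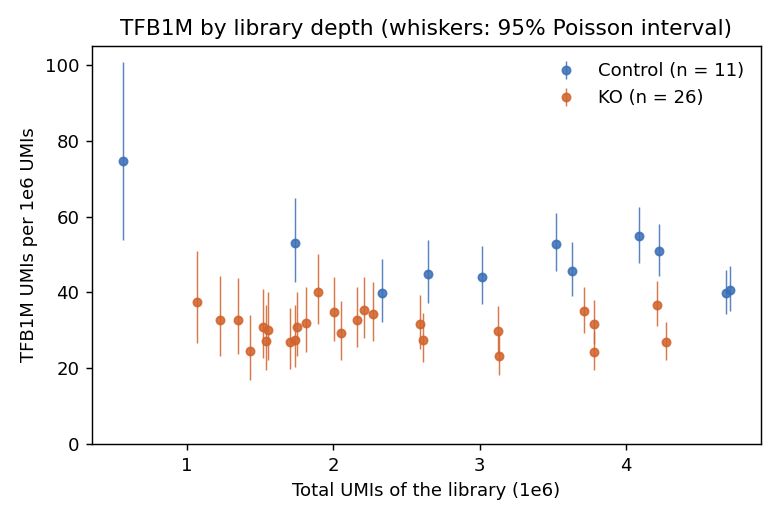
TFB1M UMIs scaled to 1000000 UMIs of the library (y axis) against the total UMIs of each library, in units of 1000000 (x axis), with 11 Control and 26 KO libraries as points and exact 95% Poisson intervals, which cover counting error only, as whiskers. On this scale without TMM factors the KO libraries lie from 23.3 to 40.1 and the Control libraries from 39.7 to 74.6, so that GGCCAC lies just above 2 Control libraries.

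The groups stood apart only as far as the scaling and the depth allowed. With library size in place of TMM factors, 25 of 26 KO libraries lay below the lowest Control library, and likewise when TMM factors were taken over unfiltered genes. When each library was thinned to the smallest total, 9 of 26 did, and the mean difference was -0.53 log2 CPM. Control library GTTTAT, the shallowest of all with 42 TFB1M UMIs, was also the highest, and without it the fitted log2 fold change was -0.63. Among AT-rich barcodes the Control libraries had 5.36, 5.65 and 6.26 log2 CPM (lowest, median, highest, n = 8) and the KO libraries 4.62, 4.91 and 5.23 (n = 12). There the groups also did not overlap, and the fitted log2 fold change was -0.74. Without GGCCAC it was -0.68 over all barcodes, with 25 of 25 KO libraries below the lowest Control library.

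Neighbouring annotation limits what a TFB1M count holds. In GENCODE release 44, 1240 of the 1949 bases of the last TFB1M exon are also the last exon of TIAM2, an exchange factor for RAC1 on the opposite strand, and 591 lie in a lncRNA on the same strand. Whether counting used strand is not given in the sources used here, so reads from this overlap cannot be told apart. TIAM2 had 2 to 32 UMIs per Control and 4 to 27 per KO library, fewer than TFB1M, with a log2 fold change of -0.09 (SE 0.13, adjusted p = 0.652, edgeR with Benjamini-Hochberg adjustment). Within 1 Mb of TFB1M, 12 other genes had a row and 3 of them were tested. SCAF8, a regulator of polyadenylation site use, had a log2 fold change of 0.07 (SE 0.05, edgeR adjusted p = 0.260). CNKSR3, a scaffold for regulators of the epithelial sodium channel, fell by 1.44 on the log2 scale (SE 0.40, edgeR adjusted p = 0.00563), from 14 to 119 UMIs in Control to 0 to 82 in KO. With limma-voom its log2 fold change was -2.36 (adjusted p = 4.01e-06).

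The other members were tested between KO and Control in the fit across all genes, and their counts are read against 33.8% of all tested genes with an edgeR adjusted p below 0.05 (16.2% lower and 17.7% higher in KO). Of these 9 members, 3 were lower, POLRMT, TFAM and MTERF2, and none was higher (0 by edgeR, limma-voom and DESeq2, also 0 at an unadjusted p below 0.05). None of the 9 passed both this threshold and an absolute log2 fold change above 0.5, as 10.2% of all tested genes did. Their median log2 fold change was -0.12, against -0.0046 for all tested genes. The same 3 members passed the test without GGCCAC.

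**Figure D2:**
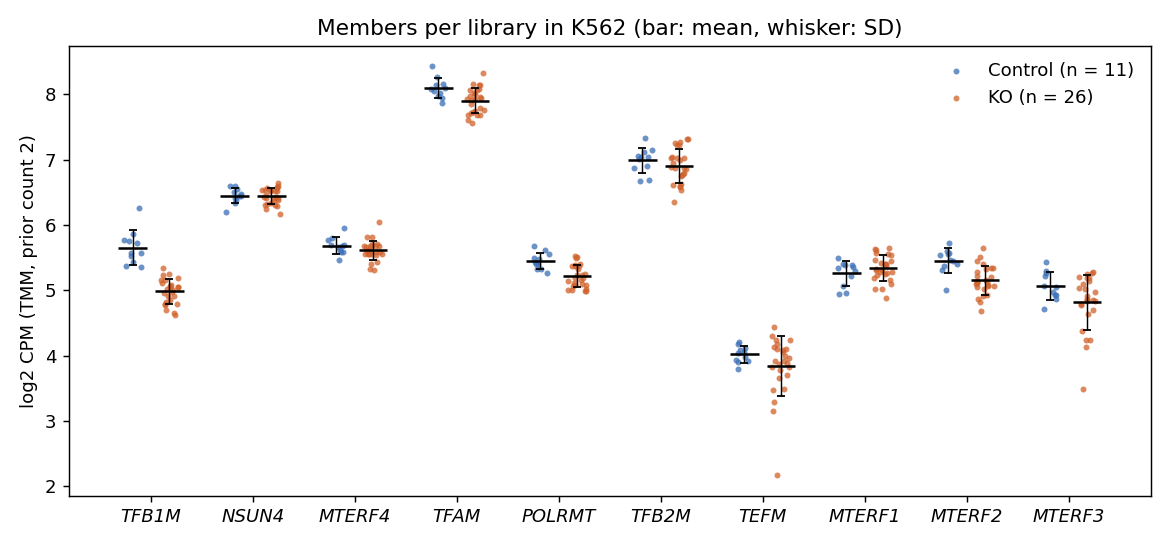
Levels of the 10 members in log2 CPM (y axis) in each of 11 Control and 26 KO libraries, with the mean as a bar and the SD as whiskers. TFB1M is the only member whose groups do not overlap, and the lowest KO libraries of TEFM and MTERF3 lie far below their group.

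POLRMT (ENSG00000099821, chromosome 19, 617221 to 633537, minus strand), the mitochondrial RNA polymerase, was lower in KO. Its lowest, median and highest levels were 5.27, 5.43 and 5.68 log2 CPM in Control and 4.98, 5.19 and 5.52 in KO. The groups overlapped, with 17 of 26 KO libraries below the lowest Control library, which makes it the member closest to TFB1M in this respect. It fell by 0.22 on the log2 scale (SE 0.06, edgeR adjusted p = 0.00408). Among AT-rich barcodes the difference was -0.26 (edgeR adjusted p = 0.0104). After thinning it was -0.19 and the call was lost (edgeR adjusted p = 0.206).

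TFAM (ENSG00000108064, chromosome 10, 58385345 to 58399220, plus strand), the packaging protein of mtDNA, was the most abundant member. It had 7.87, 8.08 and 8.43 log2 CPM (lowest, median, highest) in Control and 7.57, 7.92 and 8.32 in KO. The groups overlapped widely, and 11 of 26 KO libraries lay below the lowest Control library. TFAM fell by 0.18 on the log2 scale (SE 0.06, edgeR adjusted p = 0.0274). This call was lost with library size alone (adjusted p = 0.0639), among AT-rich barcodes (difference -0.14, adjusted p = 0.155) and after thinning (adjusted p = 0.105). It was also lost without Control library 3 (adjusted p = 0.0520), 5 (0.0948) or 6 (0.0504).

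TFB2M and TEFM did not pass the test. TFB2M, the paralog that takes part in promoter opening, had a lowest, median and highest level of 6.68, 7.04 and 7.33 log2 CPM in Control and 6.35, 6.88 and 7.32 in KO. Its log2 fold change was -0.05 (95% interval -0.21 to 0.11, edgeR adjusted p = 0.678). The range of KO libraries enclosed most of the Control range, unlike that of TFB1M. TEFM, the elongation factor, was the least abundant member, with 3.79 to 4.21 log2 CPM in Control and 2.17 to 4.44 in KO. Its SD was 0.13 in Control and 0.46 in KO, and its lowest library, KO library CGTGGG, held only 4 UMIs. The log2 fold change of TEFM was -0.12 (95% interval -0.34 to 0.10, edgeR adjusted p = 0.447). Of the 621 bases of its last exon, 497 also lie in a lncRNA on the opposite strand, so its counts carry the same limit as those of TFB1M.

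Of the MTERF family, MTERF2 was lower in KO and the other 3 did not pass the test. MTERF2 (ENSG00000120832, chromosome 12, 106977277 to 106987160, minus strand), which binds mtDNA, had a lowest, median and highest level of 5.0, 5.47 and 5.73 log2 CPM in Control and 4.68, 5.13 and 5.64 in KO. The groups overlapped, and 24 of 26 KO libraries lay below the Control median. It fell by 0.29 on the log2 scale (SE 0.07, edgeR adjusted p = 0.00242), and by 0.27 among AT-rich barcodes (edgeR adjusted p = 0.0282). After thinning the difference was -0.30 and the call was lost (edgeR adjusted p = 0.0864). The highest library labelled KO was GGCCAC, and without it the difference was -0.31. MTERF1, which ends transcription behind the rRNA genes, had 4.94 to 5.49 log2 CPM in Control and 4.88 to 5.65 in KO, with a log2 fold change of 0.09 (SE 0.07, edgeR adjusted p = 0.356).

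MTERF3, which represses mtDNA transcription, was more spread in KO. Its lowest, median and highest levels were 4.72, 5.05 and 5.43 log2 CPM in Control and 3.49, 4.86 and 5.27 in KO, where 7 libraries lay below all Control libraries. The lowest, KO library CCCTGG, held 15 UMIs. The log2 fold change was -0.20 (95% interval -0.42 to 0.02, edgeR adjusted p = 0.158), and among AT-rich barcodes it passed the test at -0.36 (edgeR adjusted p = 0.0462). MTERF4 and its partner NSUN4, the other rRNA methyltransferase, showed narrow ranges in both groups. MTERF4 had 5.46 to 5.95 log2 CPM in Control and 5.31 to 6.04 in KO, with a log2 fold change of -0.07 (95% interval -0.18 to 0.04, edgeR adjusted p = 0.322). NSUN4 had a log2 fold change near 0 with a 95% interval of -0.09 to 0.09 (edgeR adjusted p = 0.997), from 6.20 to 6.59 log2 CPM in Control and 6.17 to 6.65 in KO.

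The order of the members' levels was led by TFAM, TFB2M and NSUN4 in both groups and ended with TEFM. In Control, TFB1M stood at rank 5 with 50.4 CPM (the mean log2 CPM turned back to CPM). Its neighbours MTERF4 and MTERF2 differed from it by less than the larger of the SDs compared. In KO, TFB1M stood at rank 8 with 31.6 CPM, taken in the same way. There MTERF1, POLRMT, MTERF2, TFB1M and MTERF3 followed each other with gaps smaller than that spread.

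The transcripts that these proteins make and modify are a readout that the choice of members did not use. They come from the same libraries, groups and scaling. Of the 13 mtDNA-encoded mRNAs, 11 were analysed here. In KO, 4 of the 11 were lower (MT-ND3, MT-ND5, MT-ND6 and MT-CYB) and 2 were higher (MT-CO1 and MT-ATP6), with a median log2 fold change of -0.20, beside 16.2% lower and 17.7% higher among all tested genes. The 2 higher ones are thus a share near the background. As a sum they did not shift detectably: Control libraries had 3.02% ± 0.40 (SD, n = 11) of all UMIs on them and KO libraries 3.01% ± 0.46 (SD, n = 26) (two-sided permutation test, p = 0.937). Lowest, median and highest shares were 2.34%, 3.09% and 3.52% in Control and 2.10%, 3.05% and 4.10% in KO.

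**Figure D3:**
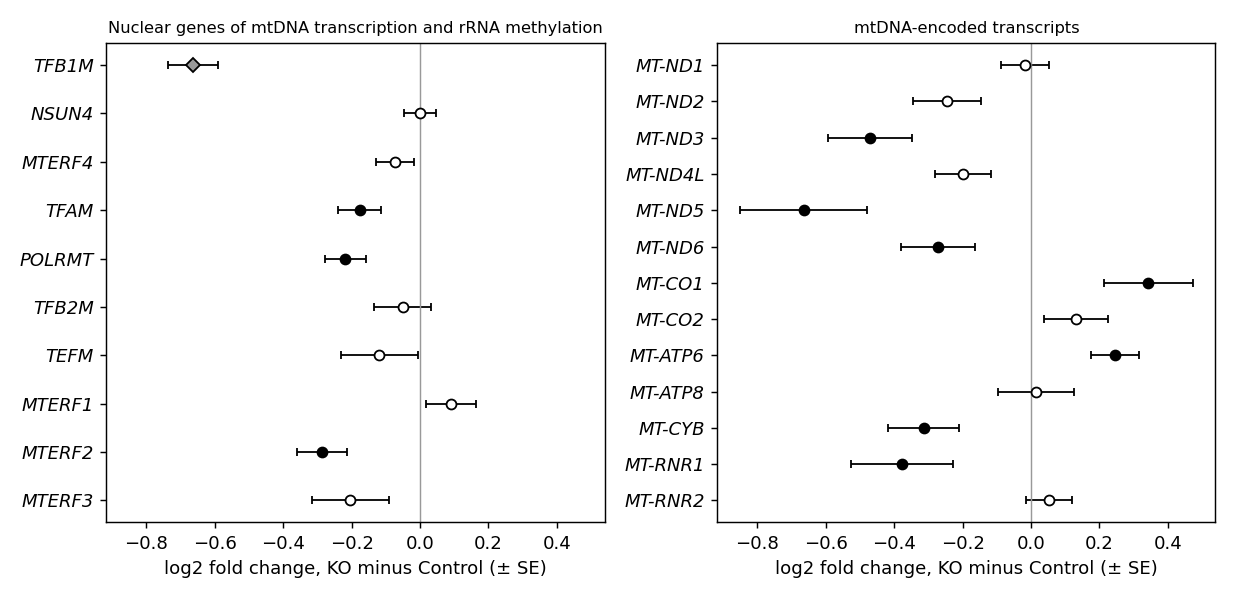
Log2 fold change of KO minus Control (x axis) with its SE for the 10 members (left) and the 13 measured mtDNA-encoded transcripts (right). Filled points have an edgeR adjusted p below 0.05, open points do not, and the grey diamond is TFB1M, which has no test.

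MT-ND5, a subunit of complex I, differed most. Its levels were 11.43, 11.73 and 12.29 log2 CPM (lowest, median, highest) in Control and 9.76, 11.30 and 11.90 in KO, and 14 of 26 KO libraries lay below the lowest Control library. It fell by 0.66 on the log2 scale (SE 0.19, edgeR adjusted p = 0.00569). MT-ND3, another complex I subunit, fell by 0.47 (SE 0.12, edgeR adjusted p = 0.00300), from 8.97 to 8.56 log2 CPM in the median. MT-ATP6, a subunit of ATP synthase, rose by 0.25 (SE 0.07, edgeR adjusted p = 0.00665), and 11 KO libraries lay above the highest Control library. These 3 passed the test in all 10 alternative fits and without each library in turn.

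The remaining calls among mtDNA mRNAs depended on the fit. MT-CYB, of complex III, fell by 0.31 (SE 0.10, edgeR adjusted p = 0.0186) and lost its call with barcode class as a covariate (-0.20, adjusted p = 0.120), among AT-rich barcodes (0.0790) and after thinning (0.0635). MT-CO1, of complex IV, rose by 0.34 (SE 0.13, edgeR adjusted p = 0.0380) and was not called in 3 of 10 alternatives, nor without 1 of 7 libraries (Control 1, 3, 4, 5 or 6, and KO 4 or 24). MT-ND6 fell by 0.27 (SE 0.11, edgeR adjusted p = 0.0487), a call lost in 7 of 10 alternatives and on leaving out any 1 of 26 libraries. MT-ND6 is encoded on the other strand of mtDNA, and without strand its reads cannot be told from antisense RNA of its neighbours. MT-ND1, MT-ND2, MT-ND4L, MT-CO2 and MT-ATP8 did not pass the test in the edgeR fit. Of these, MT-ND2 was called lower with limma-voom (adjusted p = 0.0280), with DESeq2 (0.0436) and by edgeR among genes of at least 10 CPM (0.0490). MT-ND4L was called lower with limma-voom (adjusted p = 0.0352), and MT-CO2 was called higher by edgeR with barcode class as a covariate (adjusted p = 0.0236). Nuclear copies of mtDNA have similar sequence, and how reads that match both were counted is not given in the sources used here, so each of these counts is uncertain.

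MT-RNR1, the 12S rRNA whose stem-loop is the TFB1M substrate, was lower in KO at the edge of the threshold. Its levels were 10.95, 11.53 and 11.82 log2 CPM (lowest, median, highest) in Control and 10.05, 11.21 and 11.65 in KO. The groups overlapped, and 8 of 26 KO libraries lay below the lowest Control library. It fell by 0.38 on the log2 scale (SE 0.15, edgeR adjusted p = 0.0460), a call lost in 5 of 10 alternatives and on leaving out any 1 of 23 libraries. MT-RNR2, the 16S rRNA of the large subunit, had a log2 fold change of 0.05 (SE 0.07, edgeR adjusted p = 0.584).

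Within each library, MT-RNR1 was lower relative to the mtDNA mRNAs. This ratio reuses the MT-RNR1 counts over a sum that did not shift detectably, so it is not a separate result. The log2 ratio of MT-RNR1 UMIs to mtDNA mRNA UMIs averaged -3.42 ± 0.23 (SD, n = 11) for Control libraries and -3.80 ± 0.34 (SD, n = 26) for KO libraries. The difference of -0.39 had a p of 0.00167 in a two-sided permutation test with 100000 resamples, and an adjusted p of 0.00334 over this ratio and the mRNA share. The ratio was below the Control median in 23 of 26 KO libraries and below all Control libraries in 10. Among AT-rich barcodes the difference was -0.32 (permutation test, p = 0.00437), and without GGCCAC, the library labelled KO with the highest ratio, it was -0.41. A fall of this size was not particular to the 12S rRNA. MT-ND5 fell by 0.66 and MT-ND3 by 0.47, while MT-CO1 rose by 0.34 and MT-ATP6 by 0.25. KO library GTTCGA was the lowest of its group for MT-RNR1, MT-ND5 and MT-ND3. SCRB-seq primes on poly(A), so a ratio to mRNA depends on how each RNA is tailed as well as on its amount.

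**Figure D4:**
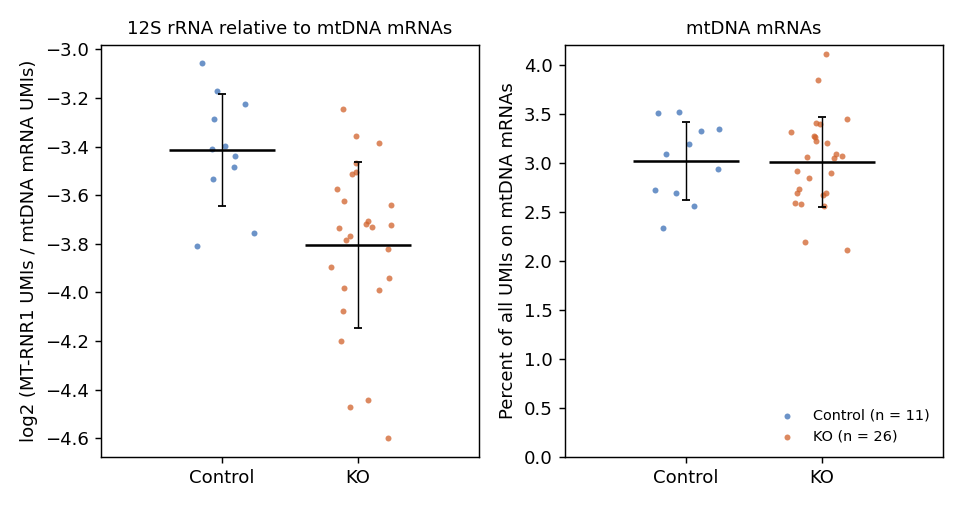
Left, log2 ratio of MT-RNR1 to mtDNA mRNA UMIs per library; right, percent of all UMIs on the 11 mtDNA mRNAs, in 11 Control and 26 KO libraries with the mean as a bar and the SD as whiskers. The ratio is lower in KO (mean -3.80 against -3.42) with overlapping groups, while the shares of mRNAs lie together near 3%.

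Variation of TFB1M among libraries of a group was not found to follow the other members or the mtDNA transcripts, but counting error limits this comparison. In each group its level was related to the 9 other members, the share of mtDNA mRNAs, MT-RNR1 and MT-RNR2, a family of 24 relations that share the libraries and their scaling. None had a Benjamini-Hochberg adjusted permutation p for Pearson's r below 0.05, and 2 had an unadjusted one below it. The strongest in KO was MTERF3, with Pearson's r = 0.47 (permutation p = 0.0132, adjusted p = 0.318) and Spearman's rho = 0.45 (permutation p = 0.0216, adjusted p = 0.518), and r = 0.38 without the 2 libraries farthest from the TFB1M median. In KO, TFB1M and MT-RNR1 had r = -0.04 (permutation p = 0.860, adjusted p = 0.938) and rho = -0.04 (permutation p = 0.833, adjusted p = 0.966), with r = 0.07 without those 2. The largest r in Control was that of TFB2M, 0.60 (permutation p = 0.0499, adjusted p = 0.599), with rho = 0.30. It was 0.28 without the 2 Control libraries farthest from the TFB1M median. MT-RNR1 had r = -0.50 in Control (permutation p = 0.122, adjusted p = 0.610), rho = -0.06, and r = -0.14 without the same 2. Groups were not pooled because they are separate for TFB1M. In KO, TFB1M had 35 to 155 UMIs per library (median 70.5) and an SD of 0.19 log2 CPM. For KO library GGAGCC, with 70 TFB1M UMIs, the exact Poisson interval alone ran from 54.6 to 88.4 UMIs. Counting error was not separated from the variation of TFB1M, so a small r cannot decide whether TFB1M was unrelated to a transcript.

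Among the 8604 genes that reached 10 CPM on average, those most like TFB1M over the 26 KO libraries were SDHAF4 (r = 0.68), TOP2B (0.67), SENP6 (0.66), STK38 (0.66) and ADAT2 (0.65). SDHAF4 is an assembly factor of succinate dehydrogenase and ADAT2 a tRNA deaminase. These genes were picked for the highest r among 8604 candidates. How high the largest r would be among genes unrelated to TFB1M was not tested. In the 11 Control libraries the same genes had r of 0.50, 0.28, -0.52, 0.14 and -0.13. Because of the choice by r in KO, these values do not show that the likeness differed between the groups.

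Genes around the members were described from 6 lists, which cover mitochondrial RNA and DNA maintenance, nuclear regulators and relatives of the methyltransferases. Of 68 tested genes, 29 (42.6%) were lower in KO and 0 were higher (also 0 at an unadjusted p below 0.05, by edgeR, limma-voom or DESeq2), against 16.2% lower and 17.7% higher among all tested genes. Their median log2 fold change was -0.14, so that most of the differences were small, and 1 of the 68 also passed an absolute log2 fold change of 0.5. The lower genes numbered 28 without GGCCAC and 20 among AT-rich barcodes. They numbered 19 with library size alone, 19 without a filter and 11 after thinning. The number of lower genes over all tested genes moved with the setting as well. The 16.2% above is 1724 of 10661 genes, beside 1346 of 11092 among AT-rich barcodes and 767 of 7878 after thinning. Across the 10 alternatives this number lay between 767 and 1979. One list gene was called higher among AT-rich barcodes and 1 with barcode class as a covariate.

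**Figure D5:**
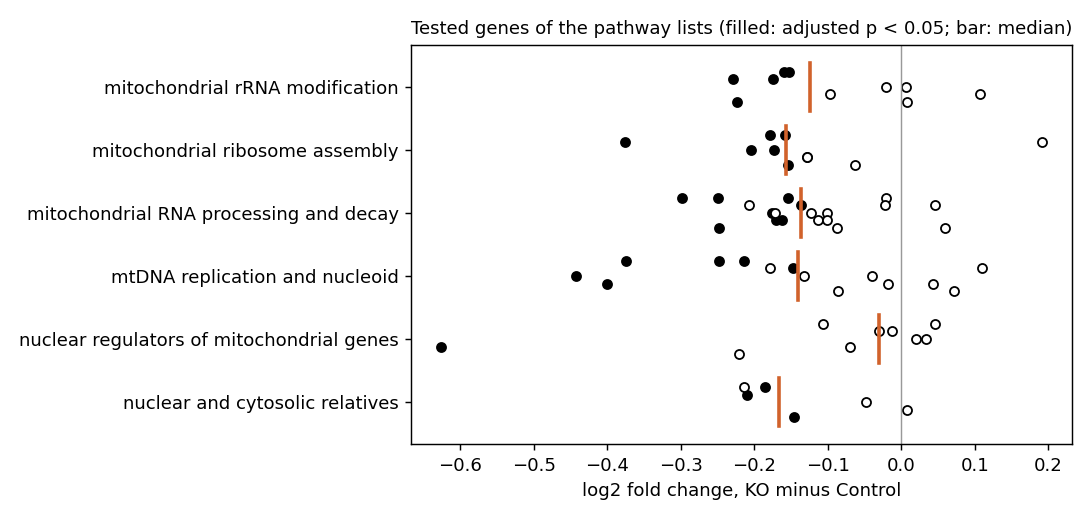
Log2 fold change of KO minus Control (x axis) of each tested gene in 6 lists (y axis), filled where the edgeR adjusted p was below 0.05, with the list median as a bar. Filled points all lie below 0, and the medians lie between -0.17 and -0.03.

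Enzymes and helpers that modify mitochondrial rRNA had 5 of 10 tested genes lower, beside 16.2% of all tested genes. RPUSD4, a pseudouridine synthase of the 16S rRNA, fell by 0.23 (SE 0.06, edgeR adjusted p = 0.00429) and kept its call in all 10 alternatives. FASTKD2, which binds the 16S rRNA, fell by 0.22 (edgeR adjusted p = 0.0495). This call was lost in 4 of 10 alternatives and on leaving out any 1 of 24 libraries. MRM3, a 16S rRNA methyltransferase, fell by 0.17 (edgeR adjusted p = 0.0162). RPUSD3 fell by 0.16 (edgeR adjusted p = 0.0138), or by 0.31 after thinning, and lost its call without a filter. MRM3 lost its call among AT-rich barcodes and without Control library TTAATC, and its sign turned after thinning.

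Assembly factors of the mitochondrial ribosome had 6 of 10 tested genes lower, beside 16.2% of all tested genes. Among them was ERAL1, the chaperone that binds the same 3′ part of the 12S rRNA (-0.16, edgeR adjusted p = 0.00623). It was named for that role after its value was seen. MTG2, a GTPase of the large subunit, fell by 0.38 (SE 0.10, edgeR adjusted p = 0.00214) and lost its call after thinning alone. MALSU1 fell by 0.20 (edgeR adjusted p = 0.0107) and kept its call in all 10 alternatives. NOA1 fell by 0.18 (edgeR adjusted p = 0.0300) and GTPBP10 by 0.17 (edgeR adjusted p = 0.0239), and these calls were lost in 5 and 4 of 10 alternatives. After thinning the difference of GTPBP10 was -0.09. The calls were also lost without 1 of 5 libraries for NOA1 (Control 1, 4, 8, 9 or 11) and 1 of 3 for GTPBP10 (Control 1, 5 or 11).

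RNA processing and decay had 8 of 19 tested genes lower, beside 16.2% of all tested genes. REXO2, an oligoribonuclease that clears short RNAs, fell by 0.30 (SE 0.06, edgeR adjusted p = 0.000226) and kept its call in all 10 alternatives. SLIRP, which stabilises mtDNA mRNAs with LRPPRC, fell by 0.25 (edgeR adjusted p = 0.0123), and FASTKD3 fell by 0.25 (edgeR adjusted p = 0.0114). Both lost their calls among AT-rich barcodes and after thinning. PNPT1, the exoribonuclease of the RNA degradosome, fell by 0.18 (edgeR adjusted p = 0.0371), a call lost on leaving out any 1 of 7 libraries (Control 1, 8, 10 or 11, and KO 2, 19 or 21). The call of PNPT1 was also lost with library size alone and without a filter. Its difference was -0.30 among AT-rich barcodes and -0.31 after thinning.

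mtDNA replication and the nucleoid had 6 of 14 tested genes lower, beside 16.2% of all tested genes. TWNK, the replicative helicase, fell by 0.44 (SE 0.16, edgeR adjusted p = 0.0272) and had an SD of 0.14 in Control and 0.62 in KO. SSBP1, which coats single-stranded mtDNA, went from 9.09 ± 0.20 log2 CPM (SD, n = 11) to 8.69 ± 0.20 (SD, n = 26) and fell by 0.40 (SE 0.07, edgeR adjusted p = 1.34e-05). POLG, the mtDNA polymerase, fell by 0.37 (SE 0.08, edgeR adjusted p = 0.000683), and TOP1MT, the mitochondrial topoisomerase, fell by 0.25 (SE 0.08, edgeR adjusted p = 0.0130). SSBP1 and TOP1MT kept their calls in all 10 alternatives, while POLG lost its call after thinning and TWNK after thinning and without a filter.

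Nuclear regulators of mitochondrial genes had 1 of 9 tested genes lower, beside 16.2% of all tested genes. It was GABPB2, a cofactor of GABPA, at -0.63 (SE 0.16, edgeR adjusted p = 0.00182). GABPB2 counts were low, with 3 to 39 UMIs per Control and 4 to 19 per KO library. Its call was kept in the 8 alternatives that held the gene, out of 10. NRF1, whose motif is in the TFB1M and POLRMT windows, had a log2 fold change of 0.05 (SE 0.07, edgeR adjusted p = 0.677) and GABPA one of -0.01 (SE 0.09, edgeR adjusted p = 0.991). Relatives of the methyltransferases had 3 of 6 tested genes lower. That list also holds NSUN3, which methylates a mitochondrial tRNA and had a log2 fold change of 0.01 (SE 0.14, edgeR adjusted p = 0.982). NOP2, a nucleolar rRNA methyltransferase, fell by 0.21 (SE 0.04, edgeR adjusted p = 0.000278), and DIMT1, which dimethylates adenines of the cytosolic 18S rRNA as TFB1M does in mitochondria, fell by 0.19 (SE 0.05, edgeR adjusted p = 0.00334). NSUN5 fell by 0.15 (edgeR adjusted p = 0.0487), a call lost in 6 of 10 alternatives, while NOP2 lost its call after thinning and DIMT1 after thinning (-0.11) and among AT-rich barcodes.

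The erythroid markers moved with the groups as well, with 4 of 9 lower and 1 higher in KO, beside 16.2% lower and 17.7% higher among all tested genes. NFE2, an erythroid transcription factor, fell by 0.52 (SE 0.07, edgeR adjusted p = 1.41e-07) and TFRC, the transferrin receptor, by 0.37 (SE 0.06, edgeR adjusted p = 1.51e-05). KLF1 fell by 0.22 (edgeR adjusted p = 0.0390), and TAL1 rose by 0.39 (edgeR adjusted p = 0.0258), calls lost in 5 and 3 of 10 alternatives. The part of this difference, and that of depth and barcode composition, in the differences of the members was not tested.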

How the data were processed

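The labels assign 37 K562 libraries to KO (26) and Control (11). The authors prepared them by bulk SCRB-seq, mapped reads to hg38 (STAR 2.6.0a in the submitters' processing notes), counted UMIs with zUMIs on Ensembl GRCh38.84 and deposited raw UMI counts of 32055 genes, not normalized. Symbols came from GENCODE release 44 (31323 identifiers matched). Columns were matched to samples by barcode. All 380 pairs of libraries within a group differed beyond sampling noise (chi-square at least 1.14 per degree of freedom), so none were merged. Counts were tested with edgeR 4.0.16 in R 4.3.3 (default filter on low counts, TMM, robust quasi-likelihood, Benjamini-Hochberg over 10661 genes). Called genes had an adjusted p below 0.05. Single measures had permutation tests with 100000 resamples. Alternatives used limma-voom (limma 3.58.1), DESeq2 1.42.0, other scalings, filters, barcode classes, thinning and leaving out each library. The code was tested on simulated data. The members and gene lists were chosen with earlier results of these data known. Named genes were all members and mtDNA transcripts, tested genes within 1 Mb of TFB1M, the 5 genes most like TFB1M, and of each list up to 4 called genes with the largest change. 8 listed genes were not analysed here. Poisson intervals cover counting error only.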

Additional observations from a re-analysis of the deposited data

How the results depend on the processing

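Of 10 alternative fits, TFB1M had a fitted log2 fold change of -0.74 to -0.58, and without each library in turn of -0.69 to -0.63. All 12 KO libraries with AT-rich barcodes lay below the lowest such Control library, but 9 of 26 did after thinning. Thinning to the smallest total left 0 calls among the other 9 members (edgeR, 2 at an unadjusted p below 0.05), with 1580 of 7878 genes called overall and 767 of them lower. The differences after thinning were -0.30 for MTERF2, -0.19 for POLRMT and -0.15 for TFAM, in place of -0.29, -0.22 and -0.18. It left 11 pathway genes lower and 3 mtDNA transcripts called, in place of 29 and 7. Pathway genes called lower were 19 with library size alone and 19 with no filter. The mtDNA transcripts called were 4 with no filter, 3 with AT-rich barcodes, and 4 to 9 without each library in turn, with 4 without Control library 1, 3 or 4. The difference in the share of mtDNA mRNAs was 0.0727 percentage points with AT-rich barcodes and -0.0806 to 0.0374 without each library in turn. The cause of these moves was not tested.

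MRM3, called lower at -0.17, was 0.0176 after thinning. Values near 0 changed sign as well. NSUN4 was -0.000285 when scaled without mtDNA genes, -0.0112 with no filter, -0.0353 with barcode class and -0.0326 with AT-rich barcodes. MT-ND1 was 0.0145 with library size alone and 0.0512 with barcode class, MT-ATP8 was -0.00266 with limma-voom, and after thinning MTERF1 was -0.00406. Without each library in turn NSUN4 lay between -0.0219 and 0.0203, MT-ND1 between -0.0433 and 0.0226 and MT-ATP8 between -0.0206 and 0.0577. POLRMT and MTERF2 kept their calls in 9 of 10 alternatives and without each library in turn. No paired analysis was possible because the labels carry no replicate numbers. Of the 10 members, TEFM had the fewest UMIs, down to 4 in a library.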

Other observations

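Some KO libraries were low in more than 1 gene of mtDNA expression. MTERF3 lay below its lowest Control library in 7 KO libraries (KO 4, 5, 10, 19, 22, 24 and 25, numbered in accession order), TWNK in 18 and GRSF1, which binds RNA in mitochondrial RNA granules, in 12. All 7 of the MTERF3 libraries were among the 18 of TWNK and among the 12 of GRSF1, and 6 of the 7 were among the 11 of TFAM. Of the 7, 5 were among the 17 of POLRMT, 4 among the 6 of TFB2M, 3 among the 8 of TEFM, 3 among the 4 of MTERF4, 2 among the 5 of MTERF2, 1 was the 1 of NSUN4 and 0 were among the 1 of MTERF1. GRSF1 was named after its values were seen, its log2 fold change was -0.21 (SE 0.09, edgeR adjusted p = 0.0652), and its SD was 0.08 in Control and 0.32 in KO. The 7 MTERF3 libraries held 1225590 to 2052701 UMIs, where all KO libraries had 1070250 to 4270901 with a median of 2030965. Control libraries had a median of 3518944, and the part of depth in the overlap was not tested. These libraries were picked by the values described, so the overlap has no test.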
